A study of Mus musculus with 12 samples.

Results

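Transcript levels were compared between a wild-type (WT) growth hormone receptor and a form labelled NLS at the GH number 1. The comparison took the 3 arrays titled NLS with 1GH (replicate letters b, c and d) minus the 3 arrays titled WT with 1GH, paired by letter, so it used 6 of the 12 arrays of the series. Each array hybridised mouse total RNA labelled with Cy3 against a reference made from embryonic RNA labelled with Cy5. The other 6 arrays are WT 0GH and NLS 0GH, with 3 arrays each. By its title the study concerns the growth hormone receptor in the nucleus, and NLS commonly stands for nuclear localization signal.

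All 4 groups share a 10 after the receptor name in their titles and a treatment with human growth hormone at 100 ng/ml and belong to a time course by their description. What the 0 and the 1 before GH count is not explained, so these numbers serve only as names of groups. Cell type and the means of expressing the receptor forms are not in the labels, so no cell type could be checked against its markers. They do not say whether the letters were separate cultures, so each p-value measures only the spread between these arrays, which may be technical. The sources used here do not state which channel is the numerator. The deposited ratios were read as reference over sample and turned, because 37 of 43 embryo-tissue genes then lay on the reference side (median -4.25 log2 units). The other reading would turn every sign given here.

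The growth hormone receptor is a cytokine receptor of the cell surface. Binding of the hormone activates the kinase JAK2, which phosphorylates STAT5, and STAT5 in turn induces genes such as Cish and Socs2 that feed back on the receptor. The receptor has also been found in the nucleus, and a nuclear localization signal is a short stretch of protein that importins recognise and carry through the nuclear pore.

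On the 6 arrays 15939 to 19700 of 23040 spots carried a value, and 7.85% to 19.5% of the blank spots had one. A value on all 12 arrays was found for 10708 features, which are 8707 named genes and 2001 spots without a single gene symbol. Values are log2 ratios of sample over reference minus the median of the array, called levels below, and a difference of 1 log2 unit is a 2-fold difference. Arrays of the same group at 1GH correlated at 0.337 to 0.566 across genes, and arrays of the same letter at 0.408 to 0.603. The NLS minus WT difference of letter b correlated with that of letter c at -0.01 and with that of letter d at -0.03, and those of c and d correlated at 0.14, all across genes, which are not independent replicates. Only 27.8% of the features had a difference of one sign in all 3 letters. The label reports of green dye incorporation also differed between the groups. They were 15.6, 19.2 and 15.8 bases per dye molecule in WT 1GH (b, c, d) and 15.5, 12.8 and 13.3 in NLS 1GH. Each NLS array thus had fewer bases per dye molecule, which means denser labelling, than every WT array. At 0GH the same labels were 16, 14.2 and 15.3 for WT and 16, 13.7 and 15.1 for NLS.

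No gene passed the threshold of 0.05 after Benjamini-Hochberg adjustment in the limma fit (0 of 10708 features, 0%), and the lowest adjusted p was 0.90. Every gene named below is therefore described by its values and did not pass as a change. The unadjusted p was under 0.05 for 319 features with a higher level in NLS (2.98%) and for 244 with a lower level (2.28%). Every NLS array lay above every WT array for 479 features (4.47%) and below them for 454 (4.24%). The median standard error of a difference was 0.67 log2 units, and the middle 50% of all differences ran from -0.49 to 0.49. Without the letter as a block the unadjusted counts were 217 higher and 159 lower, and without letter c the total of 563 became 369. The split of higher against lower depended on the centring of the arrays. On values not centred the median difference of all features was 0.35 instead of -0.05, the unadjusted p was under 0.05 for 655 higher and 57 lower features, and the groups did not overlap for 583 higher and 79 lower ones. Directions are therefore given relative to the median of each array.

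Phgdh, Pgam1, Eif5a and Mybbp1a, named in earlier results of these data and so no independent selection, lay higher in NLS. Phgdh, which encodes the first enzyme of serine synthesis from a glycolytic intermediate, had levels of -0.53, -0.47 and 0.31 on the WT arrays (b, c, d) and 1.25, 2.22 and 1.55 on the NLS arrays. The groups did not overlap, and the difference was 1.90 (SE 0.34, unadjusted p = 0.000569). Pgam1, the phosphoglycerate mutase of glycolysis, lay at -2.87, -1.93 and -0.84 in WT and at -0.52, -0.02 and 0.21 in NLS, a difference of 1.77 (SE 0.36). Eif5a, a translation factor that carries the modified residue hypusine, lay at -1.42, -0.56 and -0.84 in WT and at -0.18, 0.97 and 0.48 in NLS, a difference of 1.37 (SE 0.28). Mybbp1a, a nucleolar protein that binds Myb, lay at 0.11, -0.10 and 0.36 in WT and at 1.69, 1.62 and 1.35 in NLS, a difference of 1.43 (SE 0.37, unadjusted p = 0.00456). In all of these genes each NLS array was above each WT array. At 0GH, on the other 6 arrays, their differences were 2.51 for Phgdh, 2.97 for Pgam1, 1.93 for Eif5a and 1.45 for Mybbp1a. With green dye incorporation as a covariate the 1GH differences were 1.51, 1.82, 1.27 and 1.17 in the same order. The unadjusted limma p-values were then 0.014, 0.012, 0.018 and 0.060, so Mybbp1a was no longer under 0.05.

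Of the 12 genes named on each side below, 11 have promoter windows in the RefSeq table used here. Those of Phgdh, Pgam1, Mybbp1a and Ccnd3 are shown because Phgdh, Pgam1 and Mybbp1a lay higher in NLS at both GH numbers and Ccnd3, a cyclin of the G1 phase, lay lower at both. Each sequence is the 250 bases before the annotated start (the more upstream of 2 starts for Ccnd3), 5′ to 3′ on the strand of the gene, in build GRCm38.p6, with matches to the motifs searched in capitals.
Phgdh, chr3:98339970-98340219, minus strand: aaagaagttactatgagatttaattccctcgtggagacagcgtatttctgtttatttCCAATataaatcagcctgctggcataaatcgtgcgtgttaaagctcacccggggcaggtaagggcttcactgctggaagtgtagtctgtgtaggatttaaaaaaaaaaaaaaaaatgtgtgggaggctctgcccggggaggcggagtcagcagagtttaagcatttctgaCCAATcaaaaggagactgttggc
Pgam1, chr19:41911621-41911870, plus strand: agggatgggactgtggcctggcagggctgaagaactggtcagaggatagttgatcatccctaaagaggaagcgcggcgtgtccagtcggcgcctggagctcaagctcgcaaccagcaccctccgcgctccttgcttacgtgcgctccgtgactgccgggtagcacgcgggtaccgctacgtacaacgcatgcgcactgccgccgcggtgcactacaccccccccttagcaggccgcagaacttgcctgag
Mybbp1a, chr11:72441077-72441326, plus strand: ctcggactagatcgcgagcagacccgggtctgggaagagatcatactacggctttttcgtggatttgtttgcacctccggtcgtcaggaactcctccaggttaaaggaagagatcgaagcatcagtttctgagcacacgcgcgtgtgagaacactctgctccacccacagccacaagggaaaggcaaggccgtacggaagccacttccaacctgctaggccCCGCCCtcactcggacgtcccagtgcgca
Ccnd3, chr17:47504801-47505050, plus strand: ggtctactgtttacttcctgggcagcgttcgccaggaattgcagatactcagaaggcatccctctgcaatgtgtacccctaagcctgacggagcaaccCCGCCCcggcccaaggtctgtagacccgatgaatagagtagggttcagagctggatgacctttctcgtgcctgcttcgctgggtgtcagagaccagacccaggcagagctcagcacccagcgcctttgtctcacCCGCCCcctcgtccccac
The motifs searched on both strands were CACGTG (an E-box), TTCNNNGAA (the STAT consensus), CCAAT and GGGCGG (a GC box, CCGCCC on the other strand), and no match overlapped another here. The Phgdh window holds CCAAT at positions -193 and -23, where -1 is the last base before the start. That of Mybbp1a holds a GC box at -29, that of Ccnd3 holds GC boxes at -152 and -18, and that of Pgam1 holds 0 matches. Over the 300-base windows of the table, which add 50 bases after each start, CACGTG was found for 2 of 11 higher and 0 of 11 lower genes against 8.09% of all 27025 genes. TTCNNNGAA was found for 0 of 11 and 1 of 11 against 9.55%, CCAAT for 5 of 11 and 6 of 11 against 41.1%, and GGGCGG for 5 of 11 and 8 of 11 against 38.2%. A match describes the letters and is not evidence of binding.

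Among all named genes with groups that did not overlap and one sign in every letter, the 12 with the smallest p on the higher side were Bcl11b, Phgdh, Junb, Nbea, 4930533K18Rik, Pgam1, Eif5a, Nudcd1, Inmt, 4930526I15Rik, Nifk and Rpp14. Bcl11b, a zinc finger transcription factor of the T cell lineage, had the smallest p of all, with levels of -0.46, -0.99 and -1.68 in WT and 3.18, 2.86 and 2.21 in NLS. The difference was 3.79 (SE 0.57, unadjusted p = 0.000172, adjusted p = 0.90), and the letters gave 3.64, 3.86 and 3.89. At 0GH the difference was -0.22. Junb, an AP-1 transcription factor and an immediate early gene, lay at 0.18, -3.30 and -0.40 in WT and at 4.58, 1.197 and 2.29 in NLS, a difference of 3.86 (SE 0.71), against 1.07 at 0GH. Nifk, a nucleolar protein that binds the proliferation antigen Ki-67, lay at -0.80, 0.90 and -0.02 in WT and at 1.53, 2.10 and 2.27 in NLS, a difference of 1.94 (SE 0.43). Rpp14, a subunit of ribonuclease P, had the largest difference of these 12 genes, 5.51 (SE 1.23), but its letters ranged from 1.75 to 8.71 and its WT arrays from -5.81 to -0.75. Nbea, a membrane trafficking protein, differed by 4.70 and Inmt, an indolethylamine N-methyltransferase, by 1.66.

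On the lower side the 12 genes were Mst1r, Mt1, Cenpu, 1700024N05Rik, Slc25a10, Tmem43, Snhg6, Hba-a1, Mrrf, Sys1, Ccnd3 and Parvb. Mst1r, a receptor tyrosine kinase, lay at 4.58, 3.41 and 4.33 in WT and at 2.94, 1.91 and 0.71 in NLS, a difference of -2.25 (SE 0.46, unadjusted p = 0.0012). Mt1, a metallothionein that binds zinc and copper, lay at -1.32, 2.46 and -0.52 in WT and at -4.90, -1.77 and -1.85 in NLS, a difference of -3.05 (SE 0.62), against 0.33 at 0GH. Ccnd3 lay at 0.03, 0.57 and 0.93 in WT and at -1.44, -0.17 and -0.85 in NLS, a difference of -1.33 (SE 0.34), against -0.87 at 0GH. The NLS arrays were thus below the WT arrays in each letter, but for Mt1 the arrays of a group were up to several log2 units apart. Cenpu, a centromere protein, lay at 8.49, 5.34 and 4.84 in WT and at 2.52, 2.27 and 1.13 in NLS. Among its 6 values at 1GH, 1 exceeds what a 16-bit scanner can give over the stated floor of 200 (8.36 log2 units). Its difference of -4.25 (SE 0.90) is therefore not exact. Tmem43, a protein of the inner nuclear membrane, differed by -3.60 at 1GH and by -4.16 at 0GH. Mrrf, the mitochondrial ribosome recycling factor, lay at -1.12, -1.43 and -0.35 in WT and at -2.93, -4.02 and -5.13 in NLS, a difference of -3.06 (SE 0.77), and its difference at 0GH was 1.86. All 12 higher genes stayed above 0 and all 12 lower genes below 0 on values not centred.

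**Figure D1:**
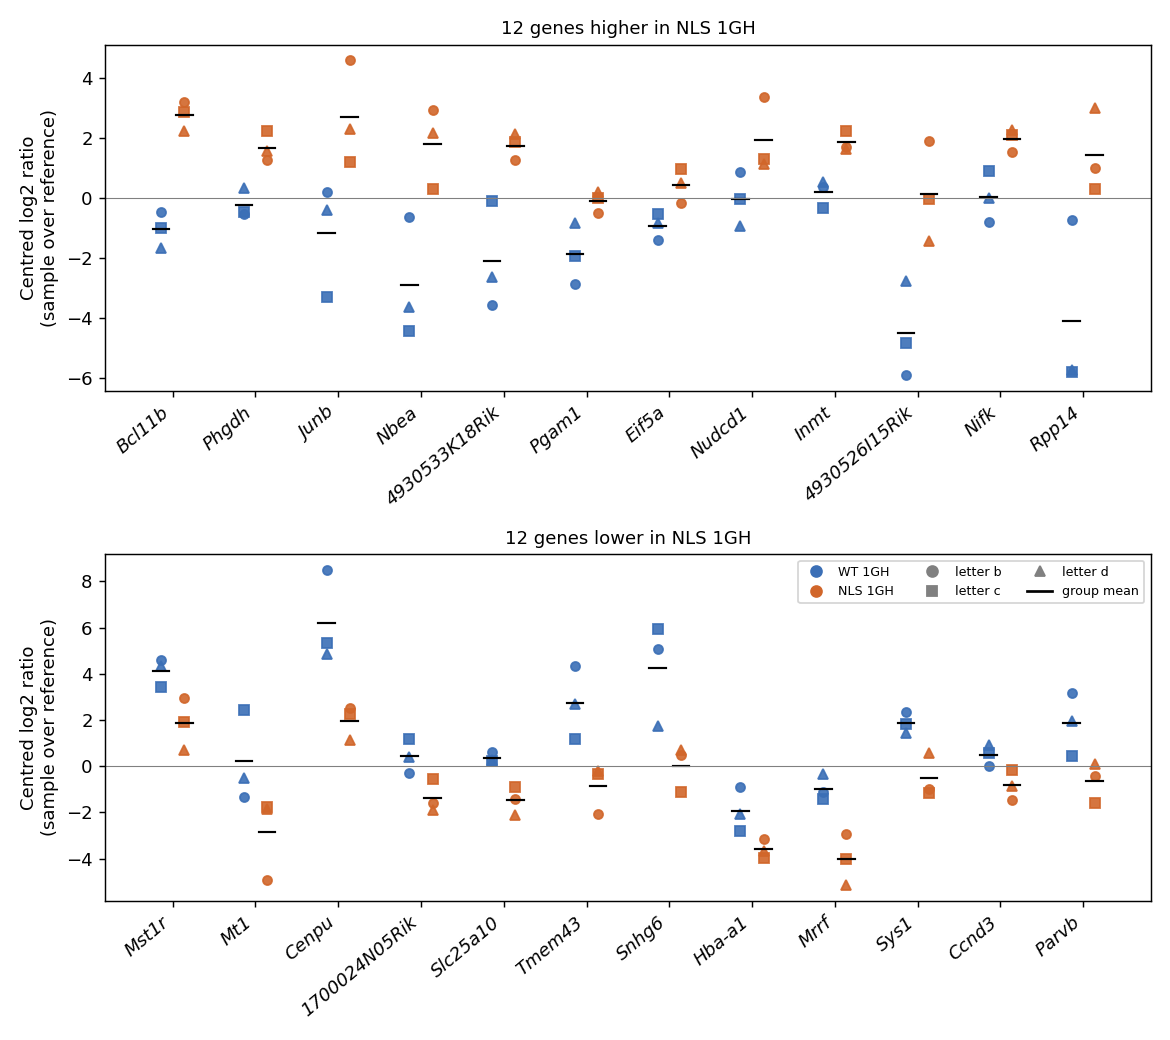
Levels (log2 ratio of sample over reference minus the array median) of the 12 genes named on the higher side and the 12 on the lower side, on each of the 3 WT 1GH and 3 NLS 1GH arrays, with the letter as the symbol and bars at group means. No gene has overlapping groups, since the genes were chosen that way, and the spread within a group is wide for Rpp14 and narrow for Bcl11b.

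Ghr, the receptor gene itself, lay at 0.13, -1.10 and -0.37 in WT and at 1.99, 0.59 and -0.35 in NLS. The difference was 1.19 (SE 0.81, unadjusted p = 0.181), positive in b and c and 0.02 in d, so the groups overlapped. The position of the Ghr spot in the transcript, and so whether it detects both receptor forms, is not stated. Cish lay at 1.92, 2.51 and 0.69 in WT and at 2.47, 2.21 and 2.13 in NLS, a difference of 0.56 (SE 0.80). Socs2 lay at 2.998, 1.58 and 0.96 in WT and at -0.03, 1.16 and 2.33 in NLS, a difference of -0.69 (SE 0.78), with opposite signs in letters b and d. Both feedback inhibitors therefore overlapped between the receptor forms. Pim1, a survival kinase induced through STAT5, differed by -1.19 (SE 2.06), and Id1, an inhibitor of basic helix-loop-helix factors, by 0.21 (SE 0.60). Birc5 (survivin) differed by -0.57 (SE 1.01) and Fxyd5, a regulator of the sodium pump, by 1.06 (SE 0.91). Myc had a value on 11 of the 12 arrays and was not in the fit. Its levels were 1.81, 2.46 and -0.39 in WT and 1.32, 1.19 and 1.08 in NLS, a mean difference of -0.09.

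Of 35 listed growth hormone and STAT5 targets, 19 were measured, with 10 above 0 and 9 below (46.9% of all features lay above 0). Junb had an unadjusted p under 0.05 on the higher side and Ccnd3 on the lower side, and none passed after adjustment. The groups did not overlap for 1 member above (5.26%, against 4.47% of all features) and 2 below (10.5%, against 4.24%). The median difference was 0.17, against -0.05 over all features, and letters b, c and d gave -0.21, -0.24 and 0.77. Cebpb, a C/EBP transcription factor, differed by -3.46 (SE 2.11), of which letter b gave -9.15. Of 47 listed JAK-STAT components, 23 were measured, with 10 above 0. An unadjusted p under 0.05 and groups that did not overlap were seen for 0 of them. Over all features 2.98% had such a p on the higher side and 2.28% on the lower, so a count of 0 in so short a list says little. The smallest p-values in that list belonged to the adaptor genes Irs2 at 1.15 (SE 0.63) and Gab1 at 0.62 (SE 0.35), and to Socs7 at -0.91 (SE 0.55). Their signs were the same in all 3 letters for Irs2 and Gab1. Among 22 immediate early genes 11 lay above 0, near the 46.9% of all features. Junb and Maff, a small Maf transcription factor (2.59, SE 0.83), were at an unadjusted p under 0.05. Every NLS array was above every WT array for 2 of the list (9.09%, against 4.47% of all features) and below for 0 (against 4.24%). The median of that list was 0.01, above that of all features, and it was -0.08 and below that of all features with quantile normalization.

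**Figure D2:**
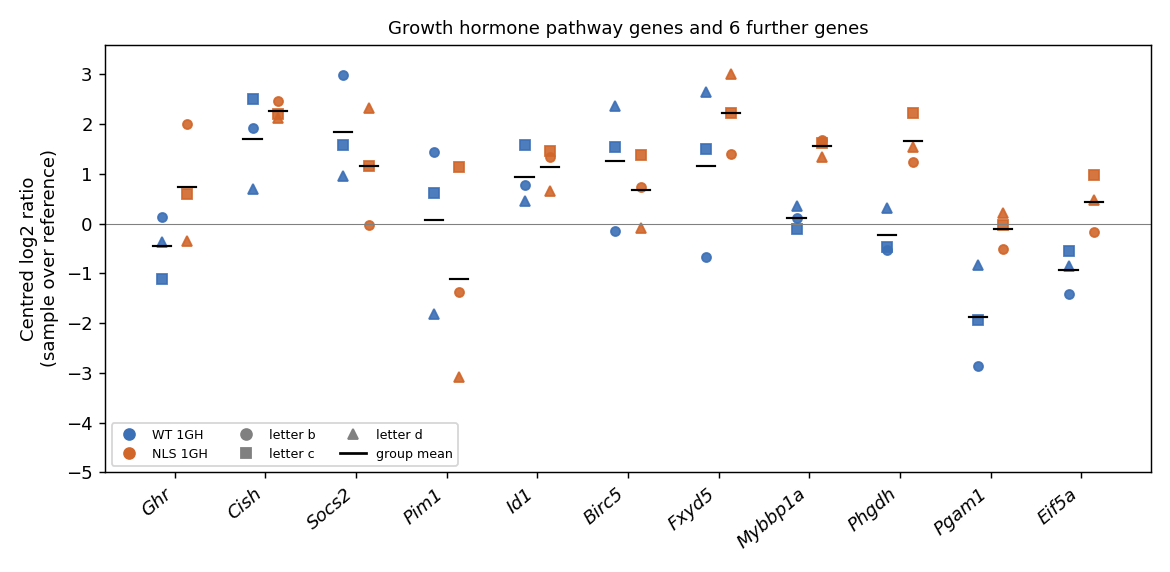
Levels (log2 ratio of sample over reference minus the array median) of 5 growth hormone pathway genes and 6 further genes on each array at 1GH, with bars at group means. WT and NLS overlap for Ghr, Cish, Socs2, Pim1, Id1, Birc5 and Fxyd5 and are apart for Mybbp1a, Phgdh, Pgam1 and Eif5a.

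Genes of ribosome biogenesis and the nucleolus lay mostly higher in NLS, with 30 of 46 measured above 0 (46.9% of all features were). An unadjusted p under 0.05 was seen for 9 on the higher side (2.98% of all features) and 0 on the lower (2.28%). None passed after adjustment. Each NLS array was above each WT array for 9 (19.6%, against 4.47% of all features) and below for 1 (2.17%, against 4.24%). The median was 0.34, with 0.69, 0.39 and -0.02 in letters b, c and d. At 0GH the list's median was 0.55, with 35 of 46 above 0 (49.6% of all features were). Nhp2, a protein of the H/ACA small nucleolar particles, lay at -0.18, 0.82 and 0.03 in WT and at 1.27, 1.76 and 1.30 in NLS, a difference of 1.22 (SE 0.33). Pno1, a factor that matures the small subunit, differed by 1.84 (SE 0.48), but its WT b array (2.33) lay above its NLS c array (1.63). The other members at an unadjusted p under 0.05 were Bysl at 2.41, Nop58 at 1.19, Nip7 at 3.23, Utp3 at 1.13, Nsun2 at 1.02 and Ebna1bp2 at 2.91, named after their values were seen. Whether this list stood apart from the rest was not tested. It was already known from earlier results on these arrays.

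The genes of the nuclear pore and of the import and export receptors had the median 0.49 over 31 measured. Of these 20 lay above 0 (46.9% of all features did). The letters gave 0.39, 0.73 and 0.38. At 0GH the list's median was 0.50, with 23 of 31 above 0 (49.6% of all features were). The 4 members with an unadjusted p under 0.05 were Kpna6, Nup93, Nup188 and Ranbp1, all on the higher side (2.98% of all features). Kpna6, an importin alpha that binds nuclear localization signals, lay at -4.40, -2.26 and -2.48 in WT and at 1.24, -0.26 and 0.25 in NLS. The difference was 3.46 (SE 0.88). At 0GH the Kpna6 difference was 0.50. Nup93, a scaffold protein of the pore, lay at 0.31, 0.41 and 0.37 in WT and at 1.88, 1.17 and 0.96 in NLS, a difference of 0.97 (SE 0.35), and Nup188 differed by 1.16 (SE 0.43). Ranbp1, a regulator of the Ran GTPase, differed by 0.93. The NLS arrays were all above the WT arrays for 6 members (19.4%, against 4.47% of all features) and below them for 0 (against 4.24%).

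Proteasome, folding and splicing genes also lay mostly above 0, against 46.9% of all features above 0 and 2.98% at an unadjusted p under 0.05 on the higher side. Of 32 proteasome subunits, 20 lay above 0 and 4 had an unadjusted p under 0.05 on the higher side (Psmd7, Psmc2, Psmc6 and Psmd1), with a median of 0.19. Psmd7, a lid subunit, lay at -5.13, -3.74 and -2.30 in WT and at 1.28, 0.27 and -0.22 in NLS, a difference of 4.17 (SE 1.02), against -0.36 at 0GH. Of 46 heat shock and folding genes, 30 lay above 0 and 8 had an unadjusted p under 0.05 on the higher side, with a median of 0.33. They included the prolyl isomerases Fkbp1a at 1.28 (SE 0.30) and Fkbp3 at 1.07 (SE 0.32) and the chaperonin subunit Cct6a at 1.06 (SE 0.33). Of 53 splicing factors, 38 lay above 0 and 3 had an unadjusted p under 0.05 on the higher side, with a median of 0.29. Hnrnpl differed by 2.39 (SE 0.78), Hnrnpab by 0.96 (SE 0.33) and Snrpf by 0.80 (SE 0.33). Hnrnpab was at -0.19 when features with at least 2 values in each group were kept, which brings in another spot of the gene. At 0GH the medians of the proteasome, folding and splicing lists were 0.36, 0.32 and 0.35. Above 0 there were 29 of 32, 29 of 46 and 36 of 53 members, against 49.6% of all features at 0GH.

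Among metabolic genes, 13 of 18 glycolysis genes lay above 0 (46.9% of all features did), with a median of 0.30 and, against 2.98% of all features, 4 at an unadjusted p under 0.05 (Pgam1, Tpi1, Ldha and the glucose transporter Slc2a3). Tpi1, the triose phosphate isomerase, lay at -1.15, -2.08 and -0.81 in WT and at 1.14, -0.57 and 0.78 in NLS, a difference of 1.80 (SE 0.54), and Ldha, a lactate dehydrogenase subunit, differed by 1.01 (SE 0.34). Every NLS array was above every WT array for 4 of the list (22.2%, against 4.47% of all features). All NLS arrays were below WT for 2 (11.1%, against 4.24%), Aldoc (aldolase C) and Eno2 (enolase 2), so members lay on both sides. Of 13 serine and one-carbon enzymes, 8 lay above 0 and the median was 0.53, with Gldc at 2.16 (SE 0.73) and Gcsh at 3.23 (SE 1.33), both of the glycine cleavage system, beside Phgdh. Cbs, which makes cystathionine from serine and homocysteine, was the 1 member at an unadjusted p under 0.05 on the lower side (-1.87, SE 0.78). The median of that list was -0.03 when features with at least 2 values in each group were kept. Of 24 cholesterol and fatty acid synthesis genes, 16 lay above 0, with a median of 0.58 that became 0.18 with green dye incorporation as a covariate. Scd2, a stearoyl desaturase, differed by 1.22 (SE 0.40), Insig1, a sterol-regulated retention protein, by 1.99 (SE 0.73) and Insig2 by 0.62 (SE 0.33). Of 24 nucleotide synthesis genes, 13 lay above 0, with Nme1 at 1.82 (SE 0.41), Aprt at 1.31 (SE 0.43) and Impdh1 at 0.64 (SE 0.35). Of 60 respiratory chain and ATP synthase genes, 43 lay above 0 with a median of 0.15, and Uqcrh (2.07, SE 0.58) and Ndufs4 (1.70, SE 0.62) had an unadjusted p under 0.05, a share near the 2.98% of all features. The NLS arrays were all above the WT arrays for 3.33% of that list, below the 4.47% of all features. At 0GH the medians were 0.55 for glycolysis, 0.69 for serine and one-carbon enzymes and 0.19 for cholesterol and fatty acid synthesis. They were 0.25 for nucleotide synthesis and 0.31 for the respiratory chain and ATP synthase.

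**Figure D3:**
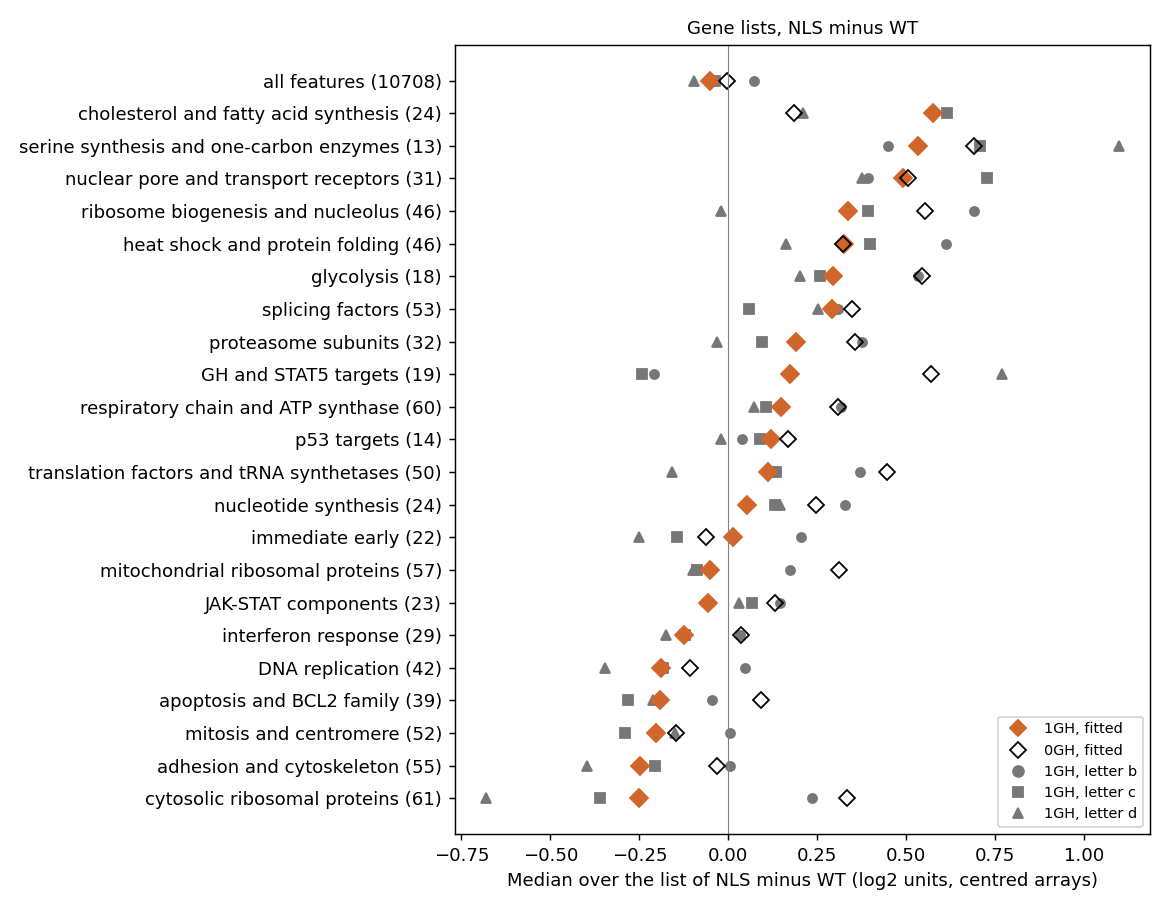
Median over each functional gene list (cell type markers left out) of NLS minus WT in log2 units, at 1GH (filled diamonds, with each letter as a grey symbol) and at 0GH (open diamonds), with the number of measured genes in parentheses. Of these lists cholesterol synthesis has the highest 1GH median (0.58) and cytosolic ribosomal proteins the lowest (-0.25, or 0.15 on values not centred), and the letters of several lists lie on both sides of 0.

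On centred arrays most cytosolic ribosomal protein genes lay lower in NLS, unlike those that assemble ribosomes. Of 61 measured, 12 lay above 0 and 49 below (46.9% of all features lay above 0), with a median of -0.25 against -0.05 over all features. On values not centred the median was 0.15 and 37 of 61 lay above 0, while the list stayed 0.20 below the median of all features. The letters differed, with medians of 0.24, -0.36 and -0.68 in b, c and d. At 0GH 53 of the same 61 lay above 0 (49.6% of all features did), with a median of 0.33. The interaction of receptor form and GH number had a median of -0.63. No member of the list had an unadjusted p under 0.05 for that interaction. Rps23, a protein of the small subunit, lay at 1.82, 1.55 and 1.43 in WT and at -3.67, 1.10 and 0.52 in NLS, a difference of -2.28 (SE 0.97). Its letters gave -5.49, -0.45 and -0.91, so 1 NLS array gave most of the difference. Rps26 differed by -0.79 (SE 0.40) and Rps3a1 by -0.54 (SE 0.30). Genes of ribosomal proteins have many processed copies, and spots of this kind can bind transcripts of more than 1 of them. Mitochondrial ribosomal proteins had a median of -0.05 over 57 genes (Mrps24 -1.73, Mrpl42 0.81, Mrpl12 0.70), and translation factors and tRNA synthetases one of 0.11 over 50, with Eif5a, Cars at 0.83 (SE 0.32) and Eif2s2 at 1.74 (SE 0.71).

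**Figure D4:**
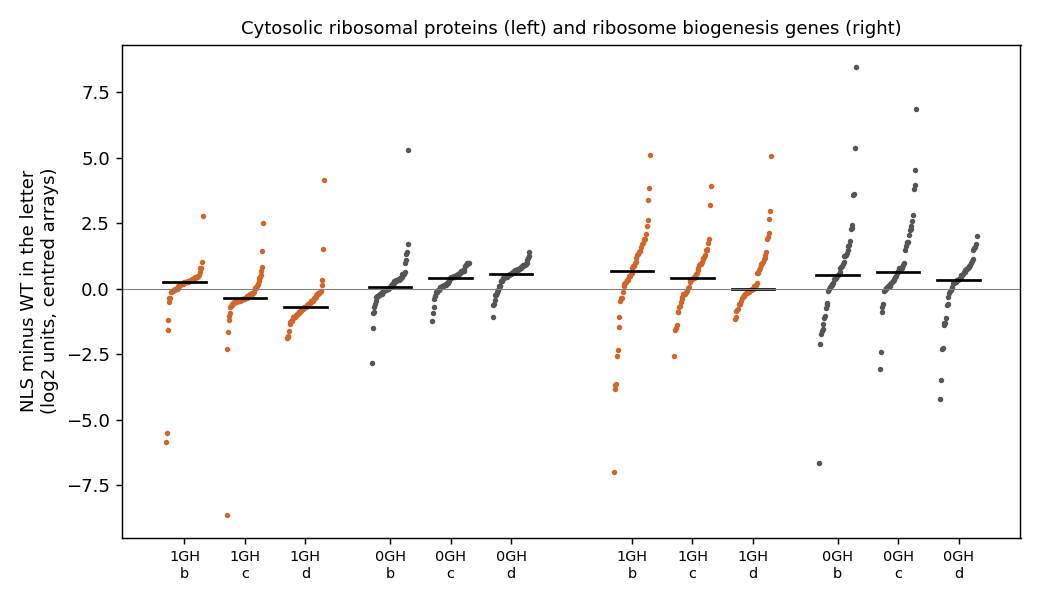
NLS minus WT in each letter (log2 units, centred arrays) for 61 cytosolic ribosomal protein genes (left) and 46 ribosome biogenesis genes (right) at 1GH (orange) and 0GH (grey), each point a gene and each bar a median. The medians of the ribosomal proteins at 1GH go from 0.24 in b to -0.68 in d, while those at 0GH are all above 0.

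Lists of the cell cycle, cell death and adhesion had medians below that of all features, of which 46.9% lay above 0. Of 42 DNA replication genes, 18 lay above 0 with a median of -0.19 (Rpa1 -1.50, Mcm7 0.54, Gins2 -0.996), and of 52 mitosis and centromere genes, 20 lay above 0 with a median of -0.20. In the latter list 2 of 52, Cenpu and the spindle motor Kif11 (-1.98, SE 0.69), had an unadjusted p under 0.05 on the lower side (2.28% of all features). The kinesin Kif4 was at 1.01 (SE 0.44). Every NLS array was above every WT array for 1.92% of that list and below for 1.92%. Both shares were under the 4.47% and 4.24% of all features. Of 39 apoptosis genes, 15 lay above 0 with a median of -0.19. Bcl2l13, a mitochondrial member of the BCL2 family, lay at 0.00, 2.40 and 0.54 in WT and at -0.86, -0.43 and -1.56 in NLS, a difference of -1.93 (SE 0.57). Birc2, an inhibitor of apoptosis, was at 3.04 (SE 0.97) and the effector caspase gene Casp6 at -1.74 (SE 0.73). Of 55 adhesion and cytoskeleton genes, 19 lay above 0 with a median of -0.25. F11r, a junctional adhesion molecule, was at -3.82 (SE 0.91), Gsn, an actin-severing protein, at -1.69 (SE 0.44) and Marcksl1, an actin-binding kinase substrate, at 1.06 (SE 0.32). On values not centred the medians of all of these lists were above 0 (0.15 to 0.21), and they stayed below the median of all features. The interferon response list had a median of -0.12 over 29 genes (Ifitm2 1.19, Ifi35 1.82, Irgm2 -1.51). The p53 target list had one of 0.12 over 14 genes (Cdkn1a 2.59, Gadd45a -1.38, Bbc3 -0.66).

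Markers of blood and other cell types were given the same treatment. Of 9 measured erythroid and megakaryocyte markers, 2 lay above 0 (46.9% of all features did). The median was -0.46, against -0.05 over all features, with -0.22, -0.78 and -0.47 in the letters. Hba-a1, an adult alpha globin whose near-identical gene copy can share its spot, lay at -0.90, -2.82 and -2.08 in WT and at -3.15, -3.95 and -3.67 in NLS, a difference of -1.66 (SE 0.41). Hba-x, the embryonic globin, differed by -1.65 and Nfe2 by -1.15. A further median was over the 18 markers of this list with any value, so not over the same genes. It was taken relative to the median of the array's non-control spots. It ranged from 0.10 to 1.03 on the WT arrays and from -0.64 to 0.75 on the NLS arrays. Of 8 T lymphoid markers, 3 lay above 0 with a median of -0.21. Bcl11b was the 1 member with an unadjusted p under 0.05 (2.98% of all features on the higher side). Taken the same way, the further median was over 17 T lymphoid markers with any value, so again not over the same genes. It ranged from -0.76 to -0.70 in WT and from -0.30 to 0.05 in NLS. The myeloid list had a median of -0.15 over 14 genes, with 9 below 0. Of its members Cebpa, whose groups overlapped, was at 3.23 and Mpo, above WT on all NLS arrays, at 1.47, while Tyrobp (-1.58), Cd14 (-1.10) and Ltf (-0.43) had all NLS arrays below WT (21.4%, against 4.24% of all features). Cd14 and Ltf were named after their values were seen. The B lymphoid list had a median of 0.31 over 13 genes. Mast cell, fibroblast, epithelial and hepatocyte markers had medians of -0.09, -0.16, 0.25 and 0.26 over 6, 16, 7 and 16 genes. Of the 16 fibroblast markers 8 lay above 0. An unadjusted p under 0.05 was seen for 2 of them on the lower side (against 2.28% of all features), Lox (-2.30) and Col5a1 (-2.01). In bulk RNA a smaller share of cells of a type and less RNA per cell cannot be told apart. The part of these markers, and of the green dye difference, in the results was not tested beyond the values given.

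Both receptor forms at 0GH are on other arrays, so the genes named at 1GH can be read there. The letters are shared between the GH numbers, and with them the labelled reference. Of the 479 features with NLS above WT at 1GH, 322 (67.2%) were higher at 0GH too, and 77 (16.1%) had all NLS arrays above all WT arrays there. Over all features 49.6% were higher at 0GH and 4.66% had all NLS arrays above. Of the 454 features with NLS below WT at 1GH, 160 (35.2%) were higher at 0GH, and 33 (7.27%) had all NLS arrays below all WT arrays there, against 4.47% of all features. Of the 12 higher genes, 10 were higher at 0GH, and the groups did not overlap there for 4 of them. Of the 12 lower genes, 2 were higher at 0GH, and 2 had all NLS arrays below WT. Genes that kept their side at 0GH thus stood beside others that did not, such as Bcl11b, 4930533K18Rik (3.85 at 1GH, -1.14 at 0GH), Mt1 and Mrrf. No interaction of receptor form and GH number passed in the limma fit (0 of 10708, 0%, lowest adjusted p 0.95), and 397 features had an unadjusted p under 0.05. The interaction was 4.01 (SE 0.81, unadjusted p = 0.00114) for Bcl11b and -4.92 (SE 1.09, unadjusted p = 0.00199) for Mrrf. Both genes were chosen by their 1GH difference, which is part of the interaction. Their interaction p-values are therefore no independent support.

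**Figure D5:**
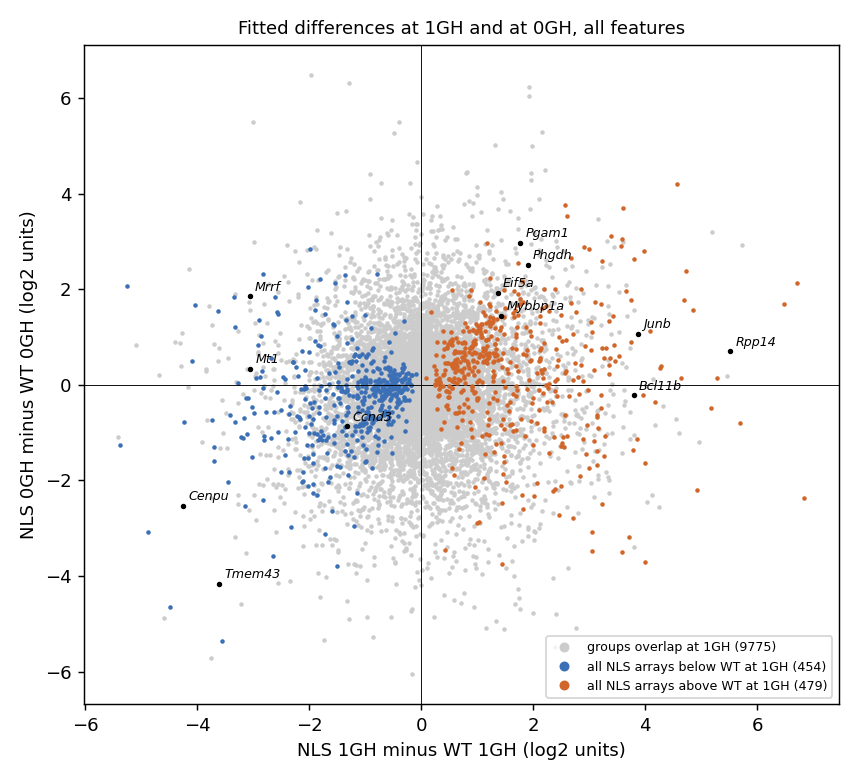
Fitted NLS minus WT difference in log2 units at 1GH (horizontal) and at 0GH (vertical) for all 10708 features, coloured by whether the 3 NLS arrays lay above (479), below (454) or among the WT arrays at 1GH. Phgdh, Pgam1, Eif5a and Mybbp1a lie on the positive side at both GH numbers, and Bcl11b and Mrrf do not keep their side.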

How the data were processed

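Deposited values of 12 arrays were used, with 3 arrays in each of 4 groups. The deposited values are read as log2 ratios (base inferred from the range of -14.6 to 18.2) that the authors, per the series' design text, made with a Lowess fit over 50% of the data and with control values under 200 set to 200. The scanner and the background correction are not stated there. Signs were turned (see the embryo-tissue check), 902 control spots were left out, 11245 of 22138 other spots had a value on all 12 arrays, each array was centred on the median of its features and the spots of a symbol were averaged. For 192 of the 367 genes with more than 1 spot, spots differed in sign. The platform table gave 16955 probes 1 symbol, 142 several and 5943 none, and 16249 matched RefSeq by Entrez identifier.

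Differences were fitted with limma 3.58.1 (lmFit, eBayes) in R 4.3.3 on all 12 arrays with the letter as a fixed block (6 residual degrees of freedom), two-sided, with Benjamini-Hochberg adjustment over all features and a threshold of 0.05, and the script was tested on simulated data. The pairing by letter comes from the shared red dye incorporation in the labels. Deviations from group means correlated at 0.04 to 0.26 within a letter (18 pairs) and at -0.19 to 0.07 between letters (36 pairs). Genes named are the 12 per direction with the smallest p among those with groups that did not overlap and one sign in all letters. Also named are the 3 with the smallest p of each of 22 functional lists, and 12 genes from the pathway or earlier results. Marker list members and further list members were named beside these. The genes, the lists and the comparison itself were chosen with earlier results of these data known. Of 14 alternatives 13 refitted the values and 1 kept the deposited sign. The number of arrays limits the precision.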

Additional observations from a re-analysis of the deposited data

Results flagged for a closer look

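Psmc2, Rps23 and Rps3a1 and the embryo-tissue list had a receptor difference of one sign in all 3 letters at 1GH and of the opposite sign in all 3 letters at 0GH. How many of all features share this pattern was not counted, so it does not set these apart from the rest. Psmc2, an ATPase subunit of the proteasome, differed by 4.21, 6.45 and 1.33 in letters b, c and d at 1GH and by -4.52, -4.84 and -1.76 at 0GH, an interaction of 7.70 (SE 1.56, unadjusted p = 0.00117, limma adjusted p = 0.95). Rps23 had an interaction of -2.75 (unadjusted p = 0.08) and Rps3a1 one of -0.76 (unadjusted p = 0.117). These genes were flagged by the same differences that make up the interaction, so its p-values are no independent support. The median of the embryo-tissue list was 0.18 at 1GH and -0.17 at 0GH, and the median interaction of its members was 0.21. That list set the sign of all values, and its difference between the GH numbers was not tested.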

How the results depend on the processing

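No alternative gave a gene past the threshold, for the difference at 1GH or for the interaction, and the lowest adjusted p for the difference ran from 0.24 with green dye incorporation as a covariate to 0.9998 without letter c. Without the replicate block the count of features with an unadjusted p under 0.05 was 376 against 563, and it changed no call. Leaving out a letter gave 369 to 717 such features and 2891 to 3942 features with groups that did not overlap, the latter with fewer arrays to overlap. Hnrnpab changed sign with at least 2 values per group (-0.19) and with ratios beyond the floor limit missing (-0.18). With green dye incorporation as a covariate Birc5 was at 0.13 and Bbc3 at 0.033. Without a letter in turn, Socs2 ranged from -1.72 to 0.48, Gadd45a from -2.49 to 0.10 and Birc5 from -1.31 to 0.36. The cause of these changes was not tested. The other 1163 gene values under alternatives kept their sign, and of the list medians 331 moved little and 72 moved further. The deposited sign turns every direction.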

Other observations

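Some features had a value in only 1 receptor form at 1GH and so entered no comparison. Of 20240 features, 18 had a value on all 3 NLS arrays and on no WT array, and 10 had a value on all 3 WT arrays and on no NLS array. The named ones with values in NLS only were 1700092C02Rik, Apc2, Asb15, Cdh15, Cysltr1, Exoc3l4, Knop1, Mynn, Ntsr1, Stag1, Tmem14a and Ubqln4. Those with values in WT only were Bbs2, Dnal1, Etv1, Fam135a, Fbxo42, Mpp3 and Popdc2. Etv1 is an ETS transcription factor and Stag1 a cohesin subunit. Up to 19.5% of blank spots also had a value on an array, so a missing or present value is no measure of expression here.

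Of 8707 named genes tested, 101 had groups that did not overlap in the same direction at both GH numbers, 72 with NLS above WT and 29 with NLS below. The Gapdh control spots, relative to the array median, had medians of -0.21, 0.28 and 0.97 on the WT 1GH arrays and -0.36, 1.03 and 0.79 on the NLS 1GH arrays.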
